A study of Saccharomyces cerevisiae with 7 samples.

Results

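The genes described here encode 60 factors that build ribosomes in the nucleolus of *Saccharomyces cerevisiae*, and the data are the sites on their mRNAs called for 5 Puf proteins. The 60 genes were chosen by name from a list of nucleolar factors that includes *NOP1*, *NOP56*, *NSR1*, *CBF5*, *RRP5* and the UTP and NOG genes and was drawn up with earlier results of these data known, so the shares below are a description. They were 60 of 5521 protein-coding genes with a level of at least 1 RPKM (reads scaled to gene length and sequencing depth) in the mRNA-seq of the same series. All 60 were in that table. Together they carried 82 sites, 3 of the 430 sites in protein-coding genes in Puf1, 10 of 1007 in Puf2, 37 of 1773 in Puf4, 24 of 2230 in Puf5 and 8 of 434 in Puf6.

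Ribosome assembly begins in the nucleolus, where a long precursor rRNA is modified, cut and folded while assembly factors and ribosomal proteins join it. Small nucleolar ribonucleoproteins (snoRNPs) modify the precursor, the small subunit processome acts on the 18S part, and a succession of pre-60S particles matures the 25S and 5.8S part. In yeast the mRNAs of these factors rise and fall together with growth conditions. Puf proteins bind short elements in mRNAs, most often in the 3' untranslated region (UTR), and in yeast many act on mRNA decay or translation. Puf6 is itself a nucleolar protein of the pre-60S pathway.

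Each protein was studied by CLIP (crosslinking and immunoprecipitation) in 1 library, with the protein carrying a TAP tag at its own gene (PUF1-TAP::HIS5, PUF2-TAP::HIS5, PUF4-TAP::HIS5, PUF5-TAP::HIS5 or PUF6-TAP::HIS5). All 5 strains were MATa and shared the alleles his3Δ1, leu2Δ0, met15Δ0 and ura3Δ0. Cells grew at 30 °C in synthetic defined medium with 200 µM 4-thiouracil, a uracil analogue that, once in RNA, crosslinks to bound protein under 365 nm light. For all 5 libraries the labels give this light at 150 mJ/cm2 with 4 exposures. The mRNA levels came from 2 samples of BY4742 puf3Δ::KAN, a strain of the other mating type without *PUF3*, for which the authors deposited 1 joint column of values. That strain also grew at 30 °C, and no 4-thiouracil or light is listed for its samples. No untagged or uncrosslinked library was used here, and with 1 library per protein no difference between libraries or gene groups was tested.

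Sites of at least 1 Puf protein were present in 39 of the 60 genes (65.0%, exact 95% interval 51.6 to 76.9), against 42.1% of all 5521 genes. A 3' UTR site was present in 28 (46.7%), against 23.8%, and a coding site in 23 (38.3%), against 27.3%. Puf4 had sites in 25 of the 60 genes (41.7%, 29.1 to 55.1), against 19.7% of all genes. Puf5 had sites in 20 (33.3%, 21.7 to 46.7), against 25.0% of all genes, but with 899 sites from each library the shares were 8.33% and 9.31%. Puf6 had sites in 8 (13.3%, 5.94 to 24.6), against 6.34% of all genes. Puf2 had sites in 7 (11.7%, 4.82 to 22.6), against 11.7% of all genes, and with 899 sites the shares were 3.33% and 8.28%. Puf1 had sites in 2 (3.33%, 0.406 to 11.5), against 5.81% of all genes. The intervals of the 60 genes lay above the share of all genes in Puf4 and included that share in the other 4 libraries. Among genes of like mRNA level, given below, the intervals for any library and for any Puf4 site included the share. The interval for Puf4 3' UTR sites lay above it there. Since the list was drawn up with earlier results known, the intervals describe the counts and are no test. Intervals cover counting error alone.

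**Figure D1:**
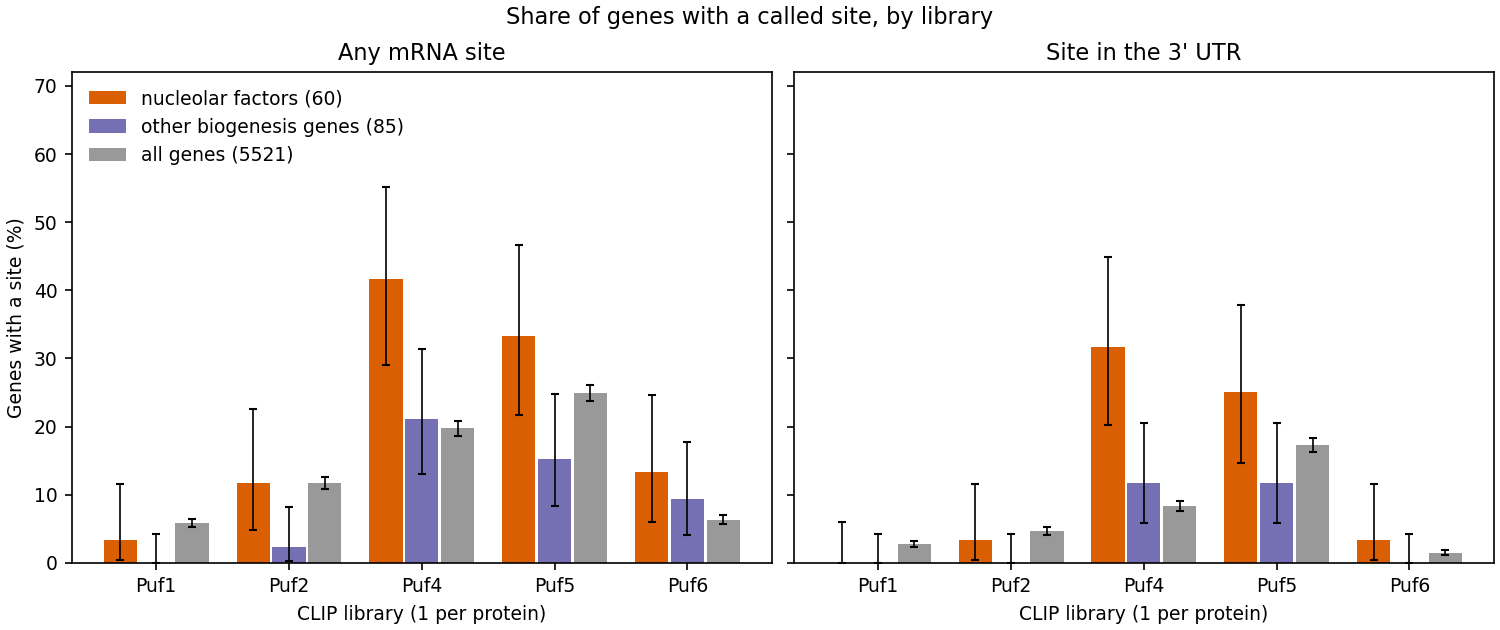
Percent of genes with a called site in each CLIP library, for the 60 nucleolar factors, 85 other ribosome biogenesis genes and all 5521 protein-coding genes with at least 1 RPKM, with any mRNA site on the left and a 3' UTR site on the right. Bars are shares and whiskers exact 95% intervals of counting error. The nucleolar factors stand highest in Puf4, at 41.7% with any site and 31.7% with a 3' UTR site, against 19.7% and 8.35% of all genes.

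In Puf4 the 60 genes stood further from all genes by their 3' UTR sites than by their coding sites. A Puf4 site in the 3' UTR was present in 19 of the 60 genes (31.7%, 20.3 to 45.0), against 8.35% of all genes. A coding site of Puf4 was present in 12 (20.0%), against 13.5%. In Puf5, 3' UTR sites were present in 15 genes (25.0%, 14.7 to 37.9), against 17.3%, and coding sites in 7 (11.7%), against 9.82%. Sites of both Puf4 and Puf5 were present in 11 of the 60 genes (18.3%), against 9.44% of all genes, and 7 of these had a 3' UTR site of each protein (11.7%, against 4.49%). A 3' UTR site of Puf4 without any Puf5 site was present in 11 genes, namely *NSR1*, *NHP2*, *EBP2*, *NOP2*, *NOP7*, *YTM1*, *MAK16*, *SPB1*, *SOF1*, *MPP10* and *CIC1*. That is 18.3% of the 60, against 3.26% of all genes. The reverse, a 3' UTR site of Puf5 without any Puf4 site, was present in 6, namely *NOP10*, *NOP14*, *NOP15*, *NIP7*, *RRS1* and *EMG1*. That is 10.0% of the 60, against 10.0% of all genes.

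The nucleolar factors were mRNAs of moderate to high level. Their median was 144 RPKM (quartiles 97.3 and 195, range 56.5 to 885), against a median of 60.4 RPKM in all 5521 genes (quartiles 29.5 and 132). Of the 60, 59 lay above the median of all genes and 37 above the upper quartile. Among the 854 genes whose level fell between the quartiles of the 60, 30 were nucleolar factors. There, 9 of the 30 had a Puf4 3' UTR site (30.0%, 14.7 to 49.4), against 11.4% of the 854. Any Puf4 site was present in 10 of the 30 (33.3%, 17.3 to 52.8), against 23.4%. In Puf5 the shares with any site were 30.0% (9 of 30) and 28.7%, and in Puf6 they were 16.7% (5 of 30) and 7.61%. A site in at least 1 library was present in 19 of the 30 (63.3%, 43.9 to 80.1), against 51.4%. Among the 60 themselves, Puf4 sites were present in 17 of the 30 with the higher levels and in 8 of the 30 with the lower levels, and Puf5 sites in 13 and 7. Shares of all genes in these ranges of level were not counted. Of the 402 genes between 317 and 885 RPKM, 53.0% had a Puf4 site and 48.3% a Puf5 site, against 19.7% and 25.0% of all 5521. The part of mRNA level in the shares was not tested further.

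Puf4 sites in these genes lay mostly in the 3' UTR, with 25 of 37 sites there (67.6%, 50.2 to 82.0), against 30.1% (27.9 to 32.3) of the 1773 Puf4 sites in protein-coding genes. The other 12 were coding. Intervals over sites treat each site as separate, but the 37 sites lay in 25 genes and the 25 in 19 genes. These intervals may thus be too narrow. In Puf5, 16 of 24 sites were in the 3' UTR (66.7%, 44.7 to 84.4), close to the 59.4% of all its sites in protein-coding genes. Puf2 had 7 of 10 sites in coding sequence, 2 in the 3' UTR and 1 in the 5' UTR. Puf6 had 4 of 8 in coding sequence and 2 in each UTR, and all 3 Puf1 sites were coding. By signal, the 3' UTR held 90.4% of the RPM of Puf4 in the 60 genes, against 69.3% in all protein-coding genes. RPM is the authors' scaled value for the reads of a site in its library, by a divisor that is not given.

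**Figure D2:**
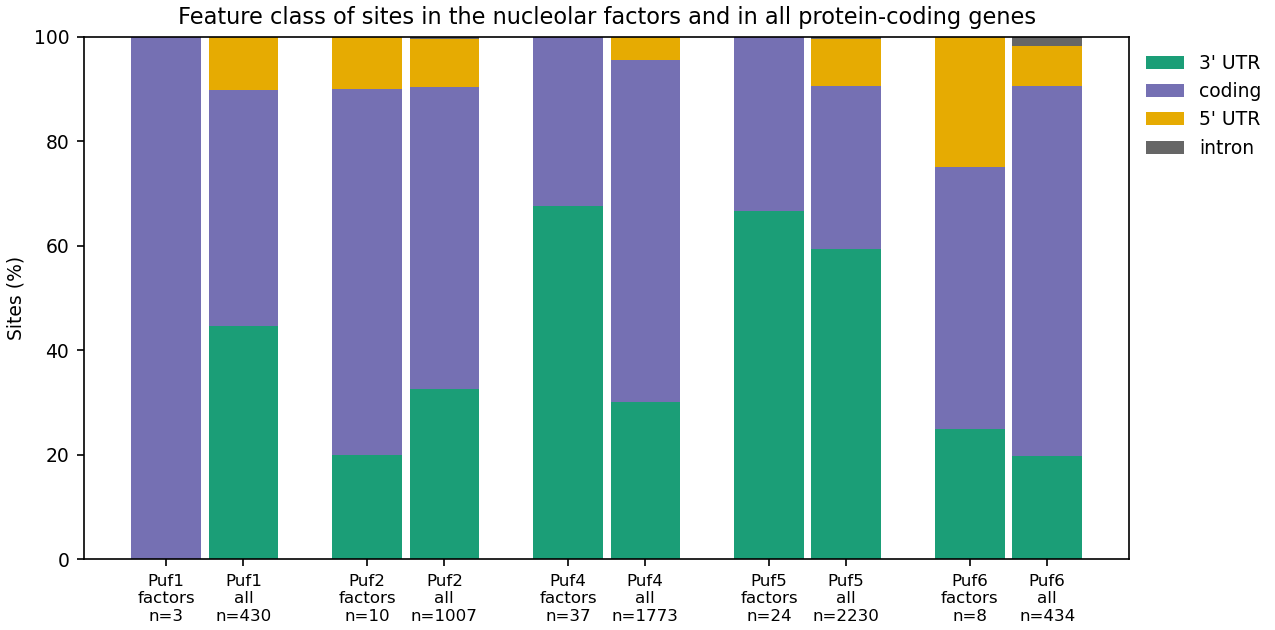
Percent of sites by feature class in each library, for sites in the nucleolar factors (left bar of each pair) and in all protein-coding genes (right bar), with the number of sites under each bar. In Puf4 the 3' UTR share is 67.6% in the factors and 30.1% in all genes, while in Puf5 the shares are 66.7% and 59.4%.

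The snoRNP proteins were the most abundant of the roles, with a median of 499 RPKM over 7 genes, and all 7 had a site. Puf4 and Puf5 each had sites in 5 of the 7 (71.4%, 29.0 to 96.3), Puf2 in 2, and Puf1 and Puf6 in none. Of the 402 genes within their range of 317 to 885 RPKM, 53.0% had a Puf4 site, 48.3% a Puf5 site and 83.3% a site in any library, so genes at this level had sites more often than the 5521 as a whole. Of the same 402 genes, 37.6% had a Puf2 site, 17.2% a Puf1 site and 14.4% a Puf6 site. The intervals of the 7 included all of these shares of the 402. *NOP1* (YDL014W) encodes fibrillarin, the methyltransferase of the box C/D snoRNPs, and was the most abundant of the 60 mRNAs at 885 RPKM. Its 3' UTR held 3 Puf4 sites, with 778, 515 and 629.5 RPM in their order along the mRNA (sacCer3, chromosome IV, 428416 to 428438, 428464 to 428483 and 428487 to 428506, plus strand). Puf5 had 267 and 235 RPM at the first and the third of these places, and no called site at the second. *CBF5* (YLR175W), the pseudouridine synthase of the box H/ACA snoRNPs, held sites of 3 proteins in its UTRs and none in its coding sequence. Puf4 had 467 and 701 RPM there (chromosome XII, 507584 to 507620 and 507622 to 507655, plus strand), a Puf5 site of 238 RPM lay further downstream (507690 to 507707), and a Puf2 site of 180.2 RPM in the 5' UTR (506107 to 506129). The adjacent Puf4 pair began at the end of the coding sequence, and no place in *CBF5* was shared between libraries.

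The mRNAs of the other H/ACA proteins each had a 3' UTR site, against 23.8% of all genes, a count too small to show anything particular to them. *NHP2* (YDL208W) had 775 RPM in Puf4 and no other site, and *NOP10* had 113 RPM in Puf5 and no other site. *GAR1* (YHR089C) had 112 RPM in Puf5, while Puf4 had 1.89 RPM at an overlapping place (chromosome VIII, 282528 to 282552, minus strand), which ranked 1729 among the 1773 Puf4 sites in protein-coding genes. *NOP56* and *NOP58*, the paired scaffold proteins of the box C/D snoRNPs, did not share a pattern. *NOP56* had 120.1 RPM in the 3' UTR in Puf5 and 50.4 RPM in coding sequence in Puf4, and *NOP58* had a single coding site of 116 RPM in Puf2.

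Small subunit factors had a lower median level of 97.0 RPKM over 24 genes. A site was present in 12 (50.0%, 29.1 to 70.9), against 42.1% of all genes, 8 in Puf4 (33.3%) and 7 in Puf5 (29.2%). Of the 2554 genes within their range of level, 51.1% had a site in any library, 23.7% a Puf4 site and 29.4% a Puf5 site. The intervals of the 24 included these 3 shares of the 2554. The strongest Puf4 site of all 60 genes was in the 3' UTR of *UTP22* (YGR090W), a component of the small subunit processome, with 2776 RPM (chromosome VII, 666102 to 666123, plus strand). It ranked 30 among the 1773 Puf4 sites in protein-coding genes, and no other gene among the 854 of like mRNA level had a stronger Puf4 3' UTR site. Puf5 had 225 RPM at the same place in *UTP22*. *SOF1* and *UTP20*, also processome components, were the 2 least abundant of the 60 mRNAs (61.8 and 56.5 RPKM), and both had strong Puf4 3' UTR sites. *SOF1* (YLL011W) had 1142 RPM there (chromosome XII, 129014 to 129038, plus strand), 208 RPM in a Puf4 coding site and 245 RPM in a Puf2 coding site. *UTP20* (YBL004W) had 941 RPM at a Puf4 site that covered the stop codon (chromosome II, 235113 to 235143, plus strand). It was the one gene of the 60 with sites in 4 libraries (1.67%, against 1.90% of all genes). Its other sites were coding, with 296 and 3.01 RPM in Puf1, 115 RPM in Puf5 and 31.4 RPM in Puf6, and none of them overlapped another.

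*MPP10* (YJR002W), the scaffold of a small complex with Imp3 and Imp4, had 976 RPM in the 3' UTR in Puf4, and in Puf2 80.1 RPM in the 3' UTR and 6.24 RPM in coding sequence. *IMP3* and *IMP4* had no site. *NSR1* (YGR159C), a nucleolin-like protein at 540.1 RPKM, had a Puf4 3' UTR site of 799.9 RPM at 806366 to 806395 on chromosome VII (minus strand) and a Puf6 coding site of 22.5 RPM. The UTP-A complex, which binds the precursor first, had no 3' UTR site in any of its 6 listed genes, against 23.8% of all genes with one. A count of 6 genes shows nothing particular to this complex. Its sites were all coding, in *UTP8* (669 RPM in Puf4), *UTP4* (111 RPM in Puf5) and *UTP10* (YJL109C). *UTP10* had 4 separate coding sites, of 86.3 and 10.2 RPM in Puf2, 133 RPM in Puf4 and 111 RPM in Puf5. Of the 3 listed UTP-B genes, *PWP2* (YCR057C) alone had a site (against 42.1% of all genes), 39.7 RPM in the 3' UTR in Puf6. The remaining small subunit mRNAs had no site above 86.2 RPM. The GTPase gene *BMS1* had 49.0 RPM in coding sequence in Puf4 and 23.5 RPM in the 3' UTR in Puf5, and *NOP14* (86.2 RPM) and the methyltransferase gene *EMG1* (47.9 RPM) had 3' UTR sites in Puf5. *RRP5* (YMR229C), which acts in the assembly of both subunits, had 1 Puf4 coding site of 116 RPM.

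Large subunit factors had a median of 161 RPKM over 28 genes. A site was present in 19 (67.9%, 47.6 to 84.1), against 42.1% of all genes, 11 in Puf4 (39.3%) and 8 in Puf5 (28.6%). Of the 1419 genes within their range of level, 54.1% had a site in any library, 25.4% a Puf4 site and 31.1% a Puf5 site. The intervals of the 28 included these shares of the 1419. Of the 11 in Puf4, 10 had a 3' UTR site, against 461 of the 1089 genes with a Puf4 site. *NOP2* (YNL061W), a methyltransferase of 25S rRNA, was the strongest, with neighbouring Puf4 sites of 952 and 2432 RPM (chromosome XIV, 512467 to 512491 and 512499 to 512524, plus strand) and 2.20 RPM in coding sequence. No other library had a site in *NOP2*. *RPF2* (YKR081C), which with Rrs1 brings the 5S ribonucleoprotein into the particle, had a Puf4 site of 1637 RPM and a Puf5 site of 22.1 RPM at nearly the same bounds (chromosome XI, 591480 to 591503 in Puf4, minus strand), next to the stop codon. Its partner *RRS1* had 77.2 RPM in the 3' UTR in Puf5 and no Puf4 site. The GTPase gene *NOG1* (YPL093W) had 1012 RPM in Puf4, while a Puf5 site of 67.6 RPM lay in the 3' UTR upstream of that site and a Puf5 site of 85.0 RPM in coding sequence. *MAK16* (YAL025C), of early pre-60S particles, had 985 RPM in Puf4, with weaker sites of 9.55 RPM and 70.0 RPM in the same library, and 11.1 RPM in Puf2 and 5.62 RPM in Puf6.

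The methyltransferase gene *SPB1* (YCL054W) had 903 RPM in the 3' UTR and 10.3 RPM in coding sequence, both in Puf4. Nop7, Erb1 and Ytm1 form a complex needed to process the spacer next to 5.8S rRNA, and all 3 of their mRNAs had a Puf4 site, against 19.7% of all genes, and none a Puf5 site, against 25.0%. *YTM1* (YOR272W) also had a Puf6 coding site of 24.0 RPM. In Puf4 it had 855 RPM and *NOP7* had 320.2 RPM in the 3' UTR, and *ERB1* had 688 RPM in coding sequence. This complex was singled out after its values were seen, and a count of 3 genes shows nothing particular to it. The helicase gene *DBP3* (YGL078C) had sites of 3 proteins. Puf4 and Puf5 had 694 and 75.0 RPM at identical bounds in its 3' UTR (chromosome VII, 360185 to 360222, minus strand), a Puf4 coding site had 79.6 RPM and a Puf5 coding site 16.6 RPM, and Puf6 had 28.9 RPM in the 5' UTR. *EBP2* had 223 RPM in the 3' UTR and 120.4 RPM near the end of the coding sequence in Puf4, and *CIC1* had 109 and 9.06 RPM in the 3' UTR in Puf4.

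Other large subunit mRNAs had sites outside Puf4. In Puf5, *NOP15* (145 RPM) and *NIP7* (118 RPM) had 3' UTR sites, and *RLP7* (97.9 RPM) had a coding site. *NOG2* (YNR053C), a GTPase gene of late nucleolar particles, had coding sites of 146 and 107 RPM in Puf5, and Puf6 had 72.7 RPM at the second of these places, its highest value in the 60 genes. The bounds of *NOG2* also hold the snoRNA gene *SNR191*, which had 6 Puf6 sites of up to 1522 RPM and no site in the other 4 libraries. The sites in *NOG2* lay outside *SNR191*. *NUG1* (YER006W), another GTPase gene, had the highest Puf1 value of the 60, 1622 RPM in a coding site (chromosome V, 163527 to 163545, plus strand), and no other site. *NOP4*, an RNA-binding factor, had coding sites of 138 and 144 RPM in Puf2. *TIF6* (YPR016C), which keeps the 60S particle from joining the small subunit, had 39.4 RPM in the 5' UTR in Puf6.

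**Figure D3:**
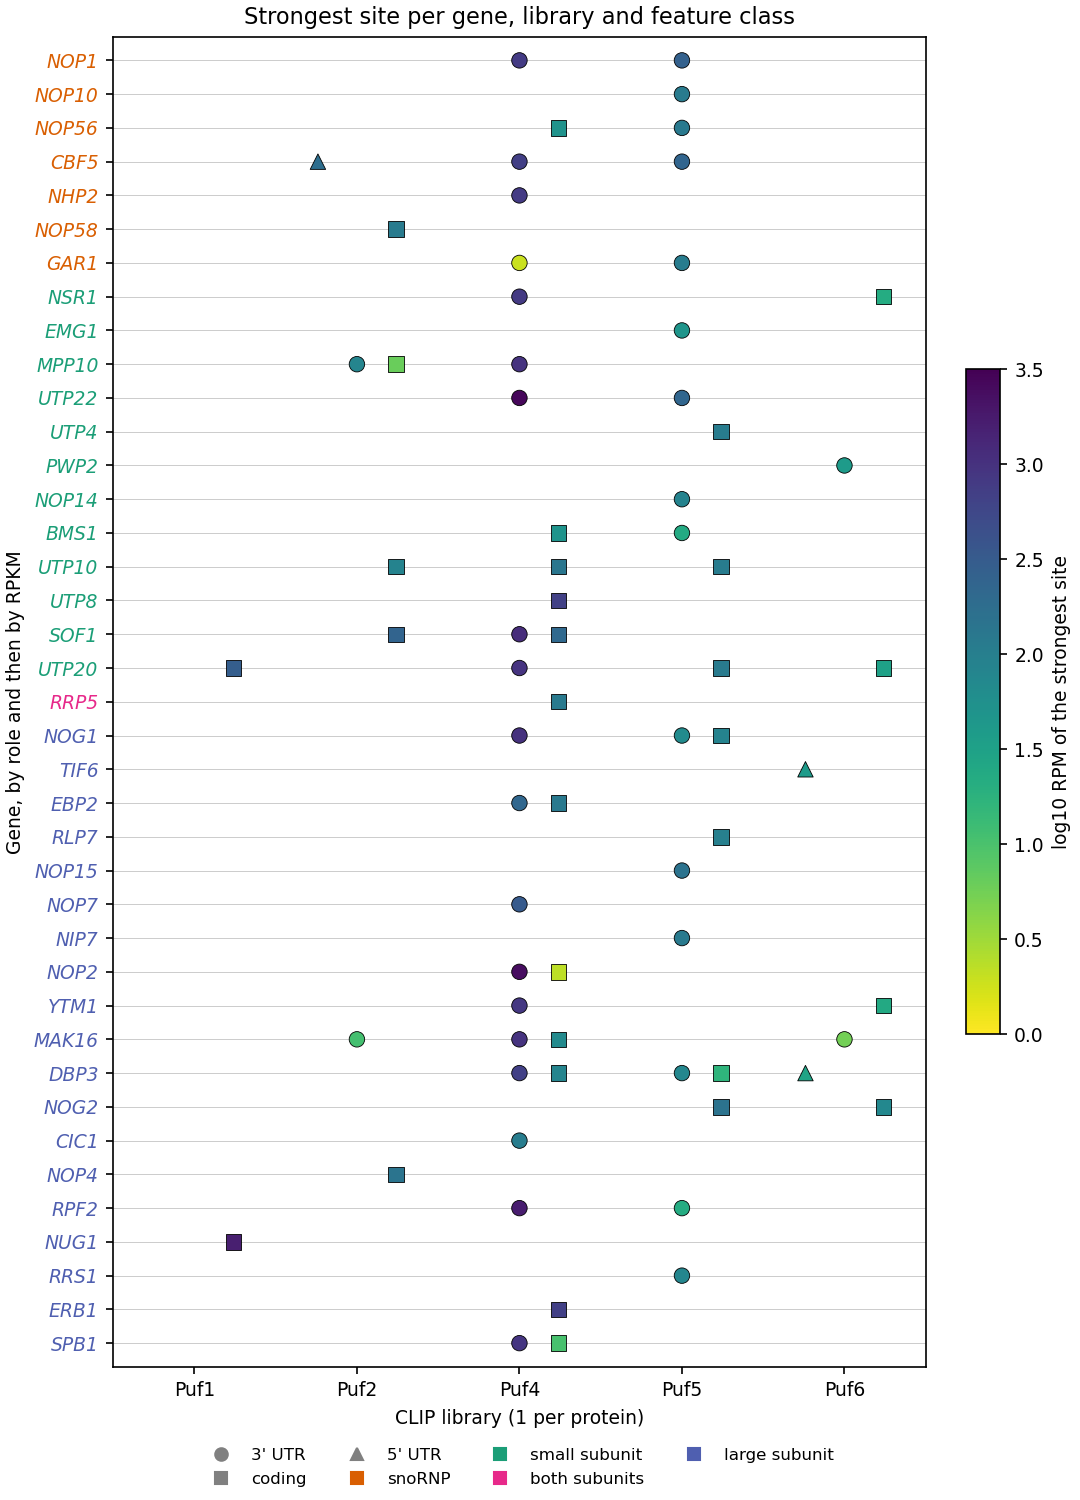
Strongest site of each of the 39 nucleolar factors with a site, by CLIP library (columns), feature class (symbol shape and sideways offset) and log10 RPM (colour). Genes run down the page by role (label colour) and, within a role, from high to low RPKM. Dark circles, strong 3' UTR sites, gather in the Puf4 column, where 19 genes have a 3' UTR site.

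The other 21 of the 60 genes (35.0%) had no called site in any library, against 57.9% of all genes. These were *NOP16*, *HAS1*, *NSA1*, *NSA2*, *NMD3*, *LOC1*, *BRX1*, *RPF1* and *RLP24* of the large subunit, and *IMP3*, *IMP4*, *KRR1*, *UTP5*, *UTP7*, *UTP9*, *UTP13*, *UTP15*, *DIP2*, *ENP1*, *ENP2* and *RCL1* of the small subunit. Their levels ran from 68.6 to 346 RPKM with a median of 121 RPKM, against 56.5 to 885 RPKM with a median of 162 RPKM in the 39 with a site, so the ranges overlapped. Sites in 2 or more libraries were present in 17 of the 60 (28.3%), against 16.3% of all genes, and in 3 or more libraries in 5 (8.33%), against 6.83%. The 5 were *CBF5*, *DBP3*, *MAK16*, *UTP10* and *UTP20*. No gene of the 60 had sites of all 5 proteins, against 0.688% of all genes.

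Strength was compared with the other sites of the same library, since RPM is scaled within a library. The 37 Puf4 sites had a median of 629.5 RPM, against 126 RPM for the 1773 Puf4 sites in protein-coding genes, and 20 of the 37 were in the upper 25% of those sites. Puf4 sites in the 3' UTR were stronger in general. Within the 3' UTR the medians were 778 RPM (25 sites) and 627 RPM (533 sites), 17 of the 25 lay above the median of the 533, and 2 of the 25 were in their top 10%. The 12 Puf4 coding sites had a median of 97.9 RPM, against 102 RPM for 1161 coding sites. Per gene, the strongest Puf4 3' UTR site had a median of 855 RPM in the 19 factors (quartiles 698 and 998), against 705 RPM in 461 genes (quartiles 221 and 985). Among genes of like mRNA level these medians were 976 RPM (9 factors) and 622 RPM (97 genes). In that set *UTP22* and *NOP2* held the first and the second place, and *RPF2* the seventh.

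Puf5 sites in the same genes were not strong for that library. Their median was 111 RPM, against 119 RPM for 2230 sites, 7 of 24 lay above that median, and none of the 16 in the 3' UTR was in the top 10%. The highest, in *NOP1*, ranked 361. In Puf6 the 8 sites had a median of 30.1 RPM, against 40.5 RPM for 434 sites, and 1 of 8 was above it. In Puf2 the 10 sites had a median of 101 RPM, against 207 RPM for 1007 sites, and in Puf1 1 of 3 was above the median of 1227 RPM. These comparisons pool the feature classes. Among coding sites alone, the Puf2 medians were 116 RPM (7 sites) and 140 RPM (583 sites). In Puf1, where all 3 sites were coding, they were 296 RPM and 340 RPM (194 sites). Of all RPM in protein-coding genes, the 60 genes held 3.03% in Puf4, 0.583% in Puf6, 0.472% in Puf5, 0.2999% in Puf1 and 0.193% in Puf2. Their shares of the sites were 2.09%, 1.84%, 1.08%, 0.698% and 0.993% in the same order. A few strong sites weigh on such RPM shares. In Puf6 the highest coding site, outside the 60 genes, had 18387 of 45317 RPM.

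**Figure D4:**
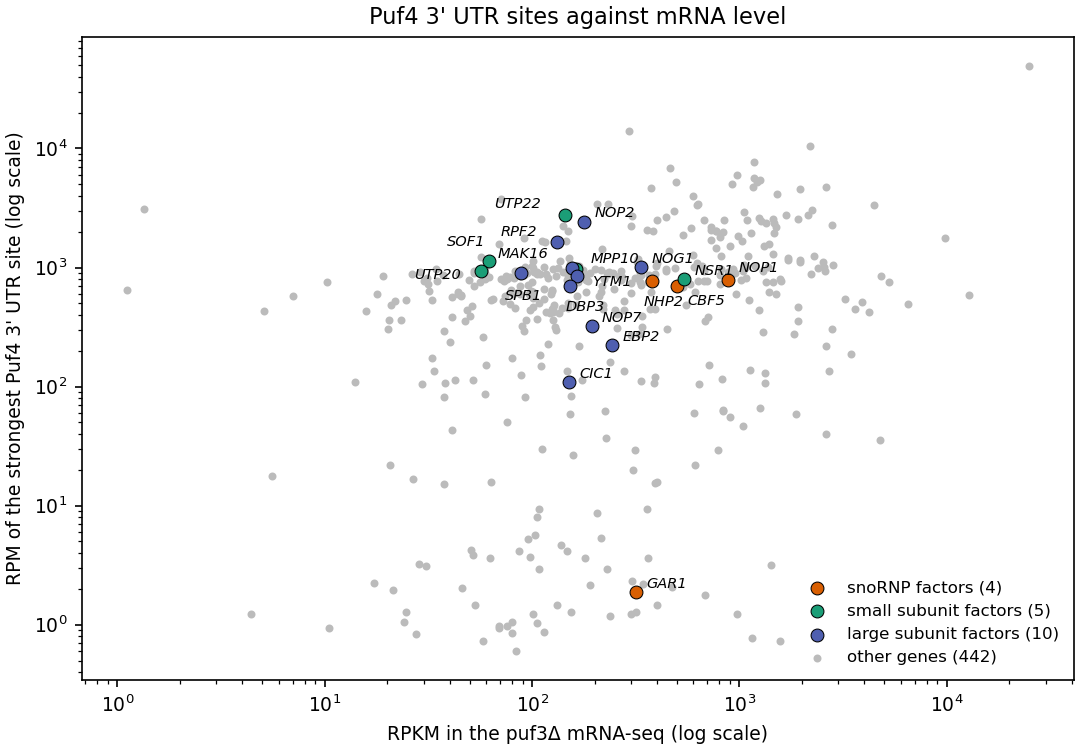
RPM of the strongest Puf4 3' UTR site of each gene against its RPKM in the puf3Δ mRNA-seq, both on log scales, for the 19 nucleolar factors with such a site (coloured by role) and 442 other genes (grey). Most factors lie between 694 and 2776 RPM over the whole range of their mRNA level, *NOP7*, *EBP2* and *CIC1* lie lower, and *GAR1* stands apart at 1.89 RPM. The median of all genes with such a site is 705 RPM.

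Puf4 sites in the 3' UTR were present in 15 of the 30 factors with the higher levels and in 4 of the 30 with the lower levels. Shares of all genes in these ranges of level were not counted, so the split shows nothing particular to the factors. Single examples stood at both ends of the range of mRNA level. *NOP1* at 885 RPKM had 778 RPM in its strongest site, while *UTP20* at 56.5 RPKM had 941 RPM. Of the 19 factors with a Puf4 3' UTR site, 15 had at least 694 RPM in the strongest one. The other 4 were *NOP7*, *EBP2*, *CIC1* and *GAR1*, with 320.2, 223, 109 and 1.89 RPM at 194, 244, 150.2 and 317 RPKM. The bound of 694 RPM is the value of *DBP3*, chosen after the values were seen. *DBP3* stood at place 233 among the 461 genes with such a site, whose median was 705 RPM. In each of the snoRNP, small subunit and large subunit groups at least 3 genes were among the 15.

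Sites in the 3' UTR lay close to the coding sequence. From the last base of the gene to the near end of the site, the median was 60 nt for the 25 Puf4 sites (range -4 to 179) and 60 nt for all 533, and 76.0% and 74.1% were within 100 nt. For Puf5 the medians were 59.5 nt (16 sites) and 66 nt (1324 sites). Gene ends were those of RefSeq, and a negative value is a site that begins within the coding sequence. The start of counting in the deposited positions was not given, so distances are good to 1 nt.

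**Figure D5:**
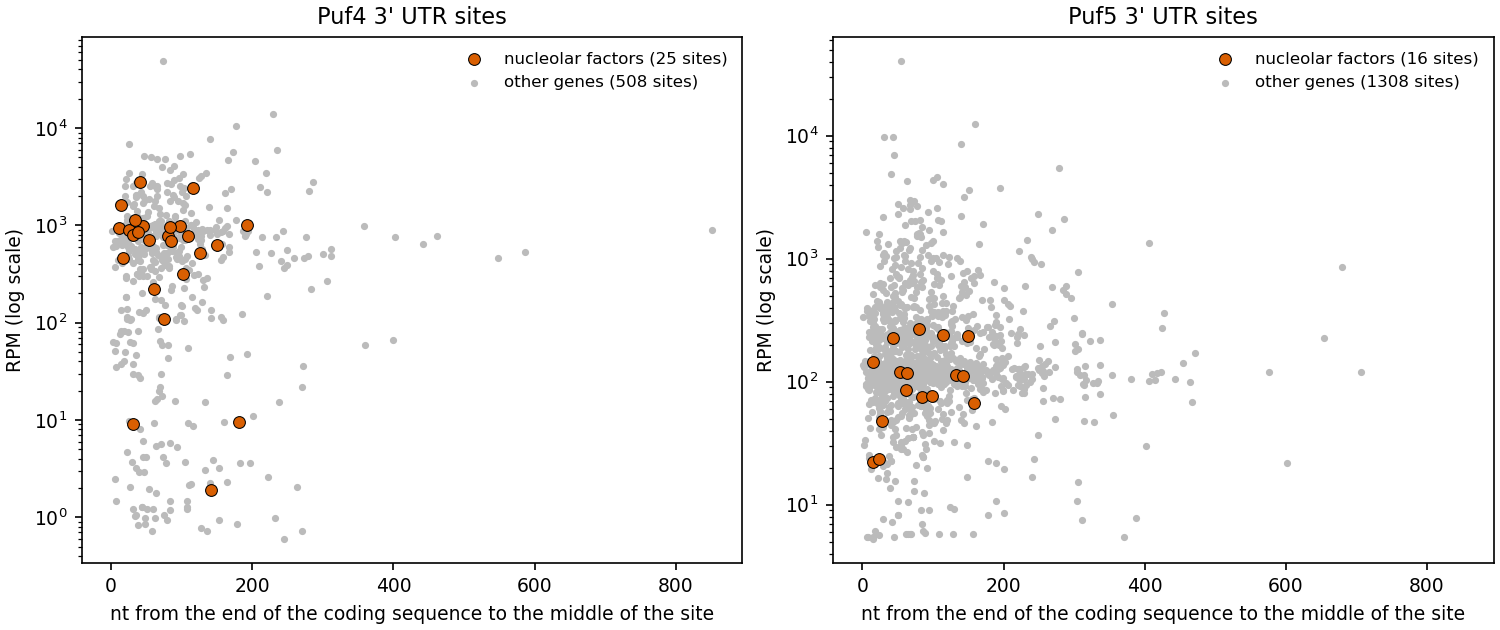
Distance from the end of the coding sequence to the middle of each 3' UTR site (nt) against its RPM (log scale), for Puf4 (left) and Puf5 (right), with sites in the nucleolar factors in orange and those in other genes in grey. In both libraries the factors' sites fall in the same range of distances as most others, and in Puf4 17 of 25 lie above the 627 RPM median of all 3' UTR sites.

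Puf4 and Puf5 met at the same place in 5 of the 7 genes with a 3' UTR site of each (71.4%), against 184 of 248 genes (74.2%) over all genes. The 5 were *NOP1*, *DBP3*, *UTP22*, *RPF2* and *GAR1*. Since RPM is not on 1 scale across libraries, each site was placed by the share of its own library's sites in protein-coding genes that had a higher RPM. At the first *NOP1* place the shares were close, 16.2% in Puf4 and 16.1% in Puf5, and at the third place they were 21.2% and 19.2%. The *UTP22* site had 1.64% of sites above it in Puf4 and 20.8% in Puf5. For *RPF2* these were 4.40% and 94.9%, and for *DBP3* 19.3% and 80.8%. In *GAR1* they were 97.5% and 57.0%, so neither library led at all 5 genes. In *CBF5* and *NOG1* the sites lay apart. Outside this pair, Puf2 and Puf6 had identical bounds in the 3' UTR of *MAK16* (chromosome I, 100008 to 100028, minus strand), where a weak Puf4 site overlapped both by 2 nt. Puf2 and Puf4 overlapped by 1 nt in *MPP10*, and Puf5 and Puf6 by 20 nt in *NOG2*. All lysates were treated with RNase T1, so ends of sites may coincide where it cuts, and its part was not tested.

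Coding sites were more often in the longer genes, a difference that was not tested. The 23 factors with a coding site had a median gene length of 1857 nt (921 to 7482), against 1035 nt (177 to 3714) for the 37 without one. The 3 longest genes of the 60, *UTP20* (7482 nt), *UTP10* (5310 nt) and *RRP5* (5190 nt), all had coding sites. Over all genes, the median length was 1494 nt for those with a coding site and 1239 nt for all 5521. The like values of the factors were 1857 nt with a coding site and 1492.5 nt for all 60. With a 3' UTR site the median length of the factors was 1418 nt, and without one 1539 nt.

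A further 85 ribosome biogenesis genes, listed by name, were counted in the same way. At least 1 site was present in 28 of them (32.9%, 23.1 to 44.0), against 65.0% of the 60 factors and 42.1% of all genes. Puf4 had sites in 18 (21.2%, 13.1 to 31.4), against 19.7% of all genes, and Puf6 in 8 (9.41%, 4.15 to 17.7), against 6.34%. Puf5 had sites in 13 (15.3%, 8.40 to 24.7), against 25.0% of all genes. Puf2 had sites in 2 (2.35%, 0.286 to 8.24), against 11.7%, and Puf1 in none (interval up to 4.25%), against 5.81%. The intervals of the 85 lay below the share of all genes in Puf5, Puf2 and Puf1. Puf4 3' UTR sites were present in 10 (11.8%, 5.79 to 20.6), against 8.35% of all genes. The highest were in *PNO1* (1635 RPM), a small subunit factor, *RRP12* (1038 RPM), an export factor, and *RRP9* (1008 RPM), which binds the U3 snoRNA. Their levels were also lower than those of the 60, with a median of 91.2 RPKM. Since the 60 were put together with results of these data known, the contrast between the lists is a description. Among the 85 is *PUF6* itself, with 102 RPM in Puf5, 64.5 RPM in Puf6 and 1.22 RPM in Puf4.

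The genes outside the list with the most similar profile over the 5 libraries were found by distance between log2 values of summed RPM + 1. For *NOP1* they included *SSE1*, *ARD1*, *RPL43B* and *GRS1*, at distances of 0.34 to 0.73, each with Puf4 and Puf5 sites alone. *SSE1*, the nearest, had 1956 RPM in Puf4 and 634 RPM in Puf5. For *CBF5* they were *SEC23*, *RPL35B*, *ATP2*, *SUR7* and *RPL9A*, the nearest being *SEC23* (distance 0.32), whose Puf2, Puf4 and Puf5 sums were 151, 1029.7 and 251 RPM. For *NSR1* they were *RRB1*, *GCV2*, *EXG2*, *HSP42* and *YML020W*, the nearest being *RRB1* (distance 0.38), the chaperone of ribosomal protein Rpl3 and one of the 85, with 620.2 RPM in Puf4 and 24.5 RPM in Puf6. The ribosomal protein genes among these have near-identical copies, between which reads may be shared.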

How the data were processed

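For every CLIP library the authors deposited called sites, with position, strand, gene, feature class and RPM, and 1 RPKM column for both mRNA-seq samples. CASAVA 1.8.2 and Bowtie 0.12.7 with build sacCer3 were named, per the submitters' processing notes. The site caller, its threshold, the RPM divisor and the joining of the mRNA-seq replicates are not given in the sources used here. Summed RPM of all sites was 420222 to 898509 per library, and read depth is unknown.

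A gene had a site when at least 1 called site in its coding sequence, intron or UTR carried its name (predicted UTRs included). Names, bounds and biotypes came from RefSeq (R64), which matched 5893 of 6550 genes. No site of the 60 genes overlapped another gene of that table, which holds no UTRs. Shares have exact Clopper-Pearson 95% intervals, and overlap was at least 1 nt on one strand. Sites in 3 or more libraries and the 5 highest per library were to be named in full. Members, roles and lists were chosen with earlier results of these data known, and the ranges of level per role were added after seeing the data. Counting was tested on simulated data. Python 3.11.15, pandas 2.3.3 and SciPy 1.17.1 were used. No sequence was analysed here, and 1 gene of similar profile is not reported here.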

Additional observations from a re-analysis of the deposited data

How the results depend on the processing

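Counts of factors with a site were recomputed with other settings. With the 50% of sites of highest RPM, Puf1 had 1 (1.67%, against 4.35% of all genes), Puf2 4 (6.67%, against 8.97%), Puf5 12 (20.0%, against 17.3%), Puf6 5 (8.33%, against 4.89%) and Puf4 22 (36.7%, against 15.7%). With 899 sites from each library, Puf2 had 2 (3.33%, against 8.28% of all genes), Puf5 5 (8.33%, against 9.31%), any library 24 (40.0%, against 25.8%) and Puf4 19 (31.7%, against 10.7%), so the share in Puf5 lay below that of all genes. With 3' UTR sites alone, Puf1 had 0 (against 2.70% of all genes), Puf2 2 (3.33%, against 4.64%) and Puf6 2 (3.33%, against 1.49%). With coding sites alone, Puf4 had 12, Puf5 7, Puf6 4 (6.67%, against 4.51% of all genes) and any library 23. With at least 2 sites in the gene, Puf1 had 1 (1.67%, against 1.14% of all genes), Puf2 3 (5.00%, against 3.06%), Puf4 9 (15.0%, against 5.71%), Puf5 4 (6.67%, against 8.31%), Puf6 0 (against 0.779%) and any library 15 (25.0%, against 13.0%). Among the 30 factors within their own RPKM quartiles, Puf1 had 1 (3.33%, against 3.86% of the 854 genes of like level) and Puf2 3 (10.0%, against 12.4%). Puf4 had 10 (33.3%, against 23.4%), Puf5 9 (30.0%, against 28.7%) and Puf6 5 (16.7%, against 7.61%). Any library had 19 (63.3%, against 51.4%), all from a list of 30 in place of 60. All other counts under these settings stayed within 1.5 times of the reported ones, as did those with no RPKM filter or a minimum of 10 RPKM. The median of 144 RPKM was the same to 3 digits with pseudocounts of 1 and 0.1. No paired analysis was possible because each protein had 1 library and the mRNA-seq replicates share 1 column. Without read counts, how precise a single RPM is could not be computed.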
